A study of Mus musculus with 6 samples.

Results

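The genes examined were 8 mouse genes for inhibitory receptors and ectonucleotidases of T cells, namely Pdcd1, Havcr2, Lag3, Tigit, Btla, Cd200r1, Entpd1 and Nt5e. They were chosen by name, with earlier results of these data known. Every region of open chromatin that touched a gene body or the 30 kb on either side was taken. For Lag3, whose neighbours lie close, the flanks were only 5 kb on either side. This gave 89 of the 236017 regions found in the whole experiment, of which 15 lay at Pdcd1, 14 at Havcr2, 5 at Lag3, 9 at Tigit, 14 at Btla, 8 at Cd200r1, 12 at Entpd1 and 12 at Nt5e.

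Inhibitory receptors are induced on T cells after activation and, once bound by their ligands, limit signalling through the T cell receptor or its co-receptors. PD-1 (Pdcd1), TIM-3 (Havcr2), LAG-3 (Lag3), TIGIT (Tigit), BTLA (Btla) and the CD200 receptor (Cd200r1) belong to this group. CD39 (Entpd1) and CD73 (Nt5e) are enzymes of the cell surface that act in sequence, CD39 turning extracellular ATP and ADP into AMP and CD73 turning AMP into adenosine, which restrains T cells through its own receptors. These genes are known mostly from exhausted, regulatory and follicular T cells, and several of them are also expressed by helper cells shortly after activation.

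Chromatin was profiled by ATAC-seq, in which the transposase Tn5 inserts sequencing adapters into accessible DNA. Naive CD4 T cells from the spleen of young adult wild-type C57BL6/J mice of both sexes were activated with antibodies to CD3 and CD28 and cultured for 5 days. Th2 cultures received IL-4, IL-2 and an antibody to interferon-γ, Th9 cultures received the same with TGF-β1, and Th17 cultures received IL-6, TGF-β1, IL-23 and IL-1β with antibodies to interferon-γ, IL-4 and IL-2. Each subset had 2 libraries, labelled 1 and 3, and nothing stated that these came from separate mice, so p-values measure only the spread between libraries.

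Each library had its own list of 100317 to 142213 peaks covering 80.7 to 118 Mb, with a fold enrichment over the genomic background for each peak. The lists held no read counts, and the lowest fold that was called, 2.11 in Th9 replicate 1 and 1.71 to 1.83 in the other 5 libraries, differed between libraries. The cultures were checked by peaks at the starts of marker genes. The Th9 cytokine gene Il9 was marked in both Th9 libraries, at percentiles of 88.6 and 90.7 among the peaks of each list, but also in both Th2 libraries, at 37.1 and 44.4. Il4 was marked in both Th9 and both Th2 libraries and in neither Th17 library, Il13 in both Th2 libraries only, and Il17f in both Th17 libraries only. Il17a was marked in both Th17 libraries, at 81.4 and 69.5, and in Th2 replicate 3, at 36.1. Starts of 5 of 6 T cell markers were marked in all 6 libraries, the exception being Cd4 with 4 libraries. Of the 9 markers of B, myeloid and NK cells, 0 were marked in all 6 libraries and 5 in 0 libraries. However, Cd14 and Itgax were marked in both Th2 libraries, and Cd14 also in Th17 replicate 3.

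In what follows a region is the union of peaks of the 6 lists that overlapped or touched, and a library calls a region when it has a peak there. A region is named by the distance of its middle from the annotated start of the gene, along the gene's strand, with negative values upstream. Peak strength is given as the percentile of a peak's fold enrichment among all peaks of its own list, so that 90 means stronger than 90% of that library's peaks.

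The sequences below come from the 6 regions away from the starts whose strength differed between subsets with the lowest adjusted p (described further on), plus the stretch directly upstream of Havcr2, whose start region differed most among the 8 starts. Each is 200 bp of the plus strand of GRCm38, taken from the middle of the stretch covered in all 6 libraries, or from RefSeq for Havcr2 (GRCm38.p6), whose promoter entry was found for 6 of the 8 genes. Capitals mark matches on either strand to a short word known from the binding sites of a factor family: TGANTCA for AP-1 and BATF dimers, TTCNNNGAA for STAT dimers, AGATAA for GATA factors, TGTGGT for RUNX factors and a tandem word of IRF factors.
Tigit -26.2 kb, chr16:43690356-43690555: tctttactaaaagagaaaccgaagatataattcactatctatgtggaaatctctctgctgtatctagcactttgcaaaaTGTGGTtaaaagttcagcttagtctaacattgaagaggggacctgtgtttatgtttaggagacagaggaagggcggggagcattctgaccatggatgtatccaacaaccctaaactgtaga
Nt5e +50.1 kb, chr9:88377435-88377634: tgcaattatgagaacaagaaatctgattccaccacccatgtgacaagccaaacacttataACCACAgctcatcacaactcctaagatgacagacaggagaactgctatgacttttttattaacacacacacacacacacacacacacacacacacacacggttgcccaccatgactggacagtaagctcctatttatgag
Havcr2 upstream, chr11:46454731-46454930: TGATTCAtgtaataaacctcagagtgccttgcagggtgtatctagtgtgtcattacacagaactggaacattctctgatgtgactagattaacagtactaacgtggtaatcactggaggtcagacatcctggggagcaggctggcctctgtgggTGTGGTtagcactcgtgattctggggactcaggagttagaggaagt
Havcr2 +19.5 kb, chr11:46474254-46474453: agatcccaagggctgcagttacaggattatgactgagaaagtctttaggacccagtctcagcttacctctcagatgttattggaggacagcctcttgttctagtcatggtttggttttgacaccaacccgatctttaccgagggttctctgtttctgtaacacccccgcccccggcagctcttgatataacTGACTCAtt
Btla +9.5 kb, chr16:45233498-45233697: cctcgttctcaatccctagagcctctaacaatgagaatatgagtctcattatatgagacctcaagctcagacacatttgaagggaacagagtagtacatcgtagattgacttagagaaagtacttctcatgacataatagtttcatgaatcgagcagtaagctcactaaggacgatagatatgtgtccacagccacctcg
Btla +37.3 kb, chr16:45261535-45261734: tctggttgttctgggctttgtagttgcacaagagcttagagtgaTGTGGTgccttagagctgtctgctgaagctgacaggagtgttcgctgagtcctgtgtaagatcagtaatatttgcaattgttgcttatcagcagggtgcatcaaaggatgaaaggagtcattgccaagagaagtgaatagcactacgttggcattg
Lag3 +10.3 kb, chr6:124901025-124901224: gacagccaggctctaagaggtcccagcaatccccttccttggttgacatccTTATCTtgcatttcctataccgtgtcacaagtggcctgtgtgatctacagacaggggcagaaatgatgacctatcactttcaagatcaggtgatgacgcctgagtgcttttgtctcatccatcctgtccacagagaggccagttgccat
The RUNX word stood in the sequences of Tigit, Nt5e, Havcr2 upstream and Btla +37.3 kb, the AP-1 word in both Havcr2 sequences and the GATA word in that of Lag3, while the Btla +9.5 kb sequence held none of the 5. The words were counted separately, and letters shared by overlapping words counted for each. Shares refer to the 200 bp at the middle of the stretch covered in all 6 libraries, not to whole regions. Among the 42 regions at the 8 genes called in all 6 libraries, this window held the RUNX word in 19.0%, against 16.4% of 50492 such regions genome-wide. The AP-1 word stood in 9.52% against 9.58% and the GATA word in 9.52% against 5.36%. The STAT word stood in 4.76% against 5.34% and the IRF word in 0 of the 42 windows against 2.25%. With the window at the middle of the whole region, RUNX stood in 10 (background 15.1%), AP-1 in 4 (7.35%) and GATA in 3 (6.77%). There, STAT stood in 4 (5.31%) and IRF in 0 (2.39%). A match says only that these letters are present.

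**Figure D1:**
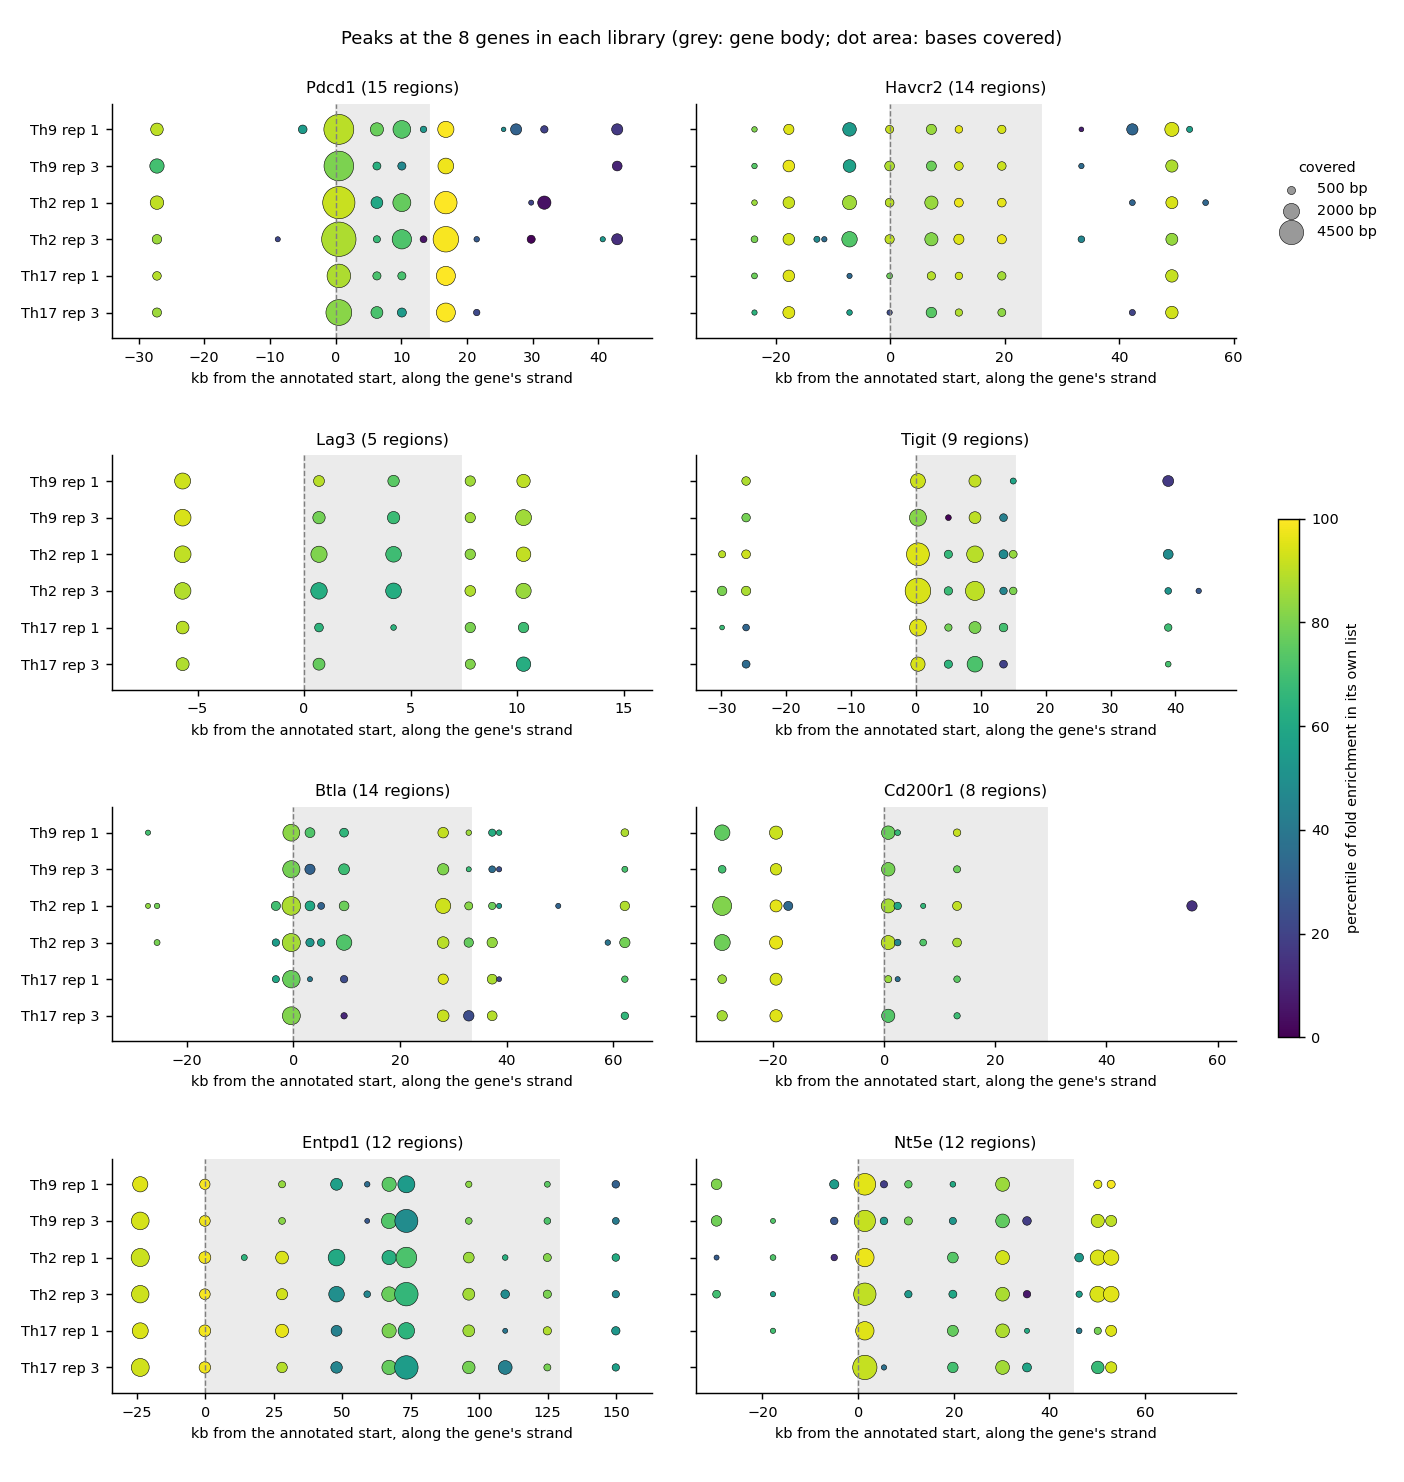
Peaks at each of the 8 genes in the 6 libraries, by distance in kb from the annotated start along the gene's strand. Each dot is a region called in that library, its area the bases covered and its colour the percentile of the strongest peak in its own list. The grey band is the gene body. Every gene has a dot near its start in all 6 rows, and the rows differ mostly in the smaller dots away from the starts.

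Regions open in every library made up the largest class at the 8 genes. All 6 libraries called 42 of the 89 regions (47.2%), against a background of 21.4% of all regions and 26.4% of regions within 30 kb of a protein-coding gene. Another 15 (16.9%) were called in a single library, against 37.2% of all regions and 33.4% near protein-coding genes. Those shared by all 6 lists were 1544 bp wide at the median, close to the 1425 bp of such regions genome-wide, with a median percentile of 82.7 against 74.3.

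**Figure D2:**
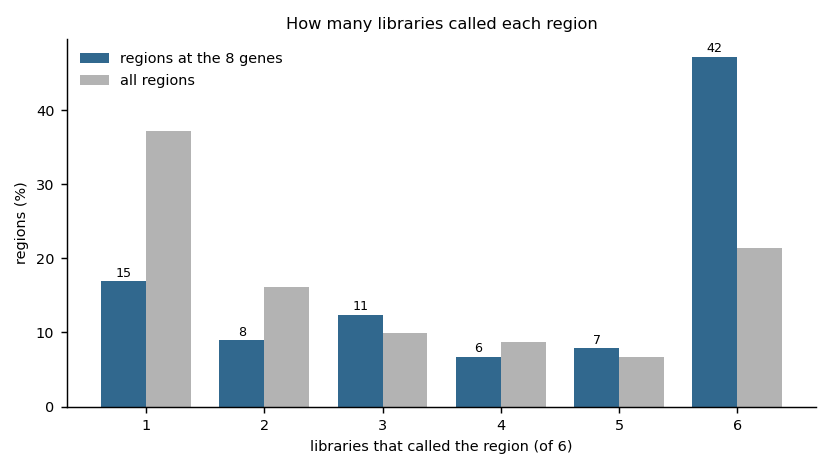
Share of regions (y axis, percent) by the number of libraries that called them (x axis), for the 89 regions at the 8 genes, with their number above each bar, and for all 236017 regions. The 8 genes have 42 regions in all 6 libraries and 15 in a single library.

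The starts of all 8 genes carried a peak in all 6 libraries, with the start taken as 1000 bp upstream to 100 bp downstream. The background was 58.7% of 21951 protein-coding genes. The start of Entpd1, shared with the divergent gene Tctn3, lay at percentiles of 97.7 to 98.9 in the 6 libraries, and that of Nt5e at 89.9 to 97.1. The region over the start of Tigit had Th17 percentiles of 95.2 and 94.0, Th2 percentiles of 94.6 and 93.8 and Th9 percentiles of 92.5 and 81.9. Th2 and Th17 overlapped there. The peaks covered 1564 to 2199 bp in Th9 and Th17 and 3983 and 5006 bp in Th2. Pdcd1 had the widest region of the 89, spanning 9069 bp around its start at percentiles of 80.2 to 91.4. The starts of Btla and Cd200r1 ranged from 77.0 to 87.5 and from 73.4 to 89.5. The start of Lag3 reached 89.3 and 78.9 (Th9), 80.8 and 62.0 (Th2) and 64.8 and 76.5 (Th17). Both Th9 libraries were above both Th17 libraries, Th2 overlapped with each, and no comparison passed (adjusted p of 0.215 to 0.985). A further annotated start of Entpd1, at +47.9 kb, was weaker, at 43.7 to 60.3 in 5 libraries, and had no peak in Th9 replicate 3.

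The number of start peaks depended on the fold required. With a fold enrichment of at least 4, 3 of the 8 genes (Tigit, Entpd1 and Nt5e) kept a start peak in all 6 libraries, and Lag3 kept it in 1 library.

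The start of Havcr2, which encodes the receptor TIM-3, was the only one of the 8 whose strength differed between subsets. Its region (chr11:46454449-46455202) lay at percentiles of 91.6 and 87.6 in Th9 and 89.8 and 90.5 in Th2, whereas Th17 gave 77.6 and 22.8. The peaks were 499 to 729 bp wide in Th9 and Th2 and 261 and 218 bp wide in Th17. Both Th17 libraries were thus below the other 4, and they also stood far apart from each other. For this and all other regions called in all 6 libraries, the log2 fold enrichment was brought to a common distribution and compared with limma, with p-values adjusted over all 50493 such regions. Th9 exceeded Th17 at the Havcr2 start by 1.08 ± 0.22 (SE) log2 units (adjusted p = 0.00806) and Th2 exceeded Th17 by 1.05 ± 0.22 (adjusted p = 0.00713). Th9 and Th2 differed by 0.03 ± 0.22 (adjusted p = 0.961). Without Th17 replicate 3 the differences were 0.72 (adjusted p = 0.172) and 0.68 (adjusted p = 0.187), and without Th9 replicate 1 the adjusted p for Th9 against Th17 was 0.0556. Both calls were also lost when percentiles were compared on the logit scale (adjusted p = 0.118 and 0.0819) and when regions called in fewer libraries were fitted too, with missing values at the lowest fold of the list (0.0722 and 0.068). In bulk chromatin, fewer cells with an open site and less accessibility per cell cannot be told apart.

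Over the 42 regions at the 8 genes, Th17 was where most differences lay. Between Th9 and Th17, 7 regions (16.7%) passed an adjusted p of 0.05 in limma, against a background of 6.01% of all regions, 5 of them higher in Th9 (background 3.11%) and 2 higher in Th17 (background 2.9%). Between Th2 and Th17, 8 regions (19.0%) passed, against 7.44% of all regions, and all 8 were higher in Th2 (background 5.04%), with 0 higher in Th17 (background 2.4%). Both comparisons used the same Th17 libraries. With either Th17 library left out, fewer regions passed in both comparisons, at the 8 genes and over all regions alike. Leaving out Th2 replicate 1 also lowered both numbers for Th2 against Th17. Between Th9 and Th2, 0 of the 42 regions passed in limma, against 3.19% of all regions (1.01% higher in Th9 and 2.18% higher in Th2). The lowest adjusted p there was 0.0565. In all, 11 regions passed in at least 1 comparison, 26.2% of the 42 against 11.6% of all regions. Genome-wide, the directions moved with the scaling: 1572 regions were higher in Th9 and 1462 in Th17, but 429 and 155 when percentiles were compared on the logit scale, and the figures for Th2 against Th17 were 2546 and 1210, and 1263 and 141.

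**Figure D3:**
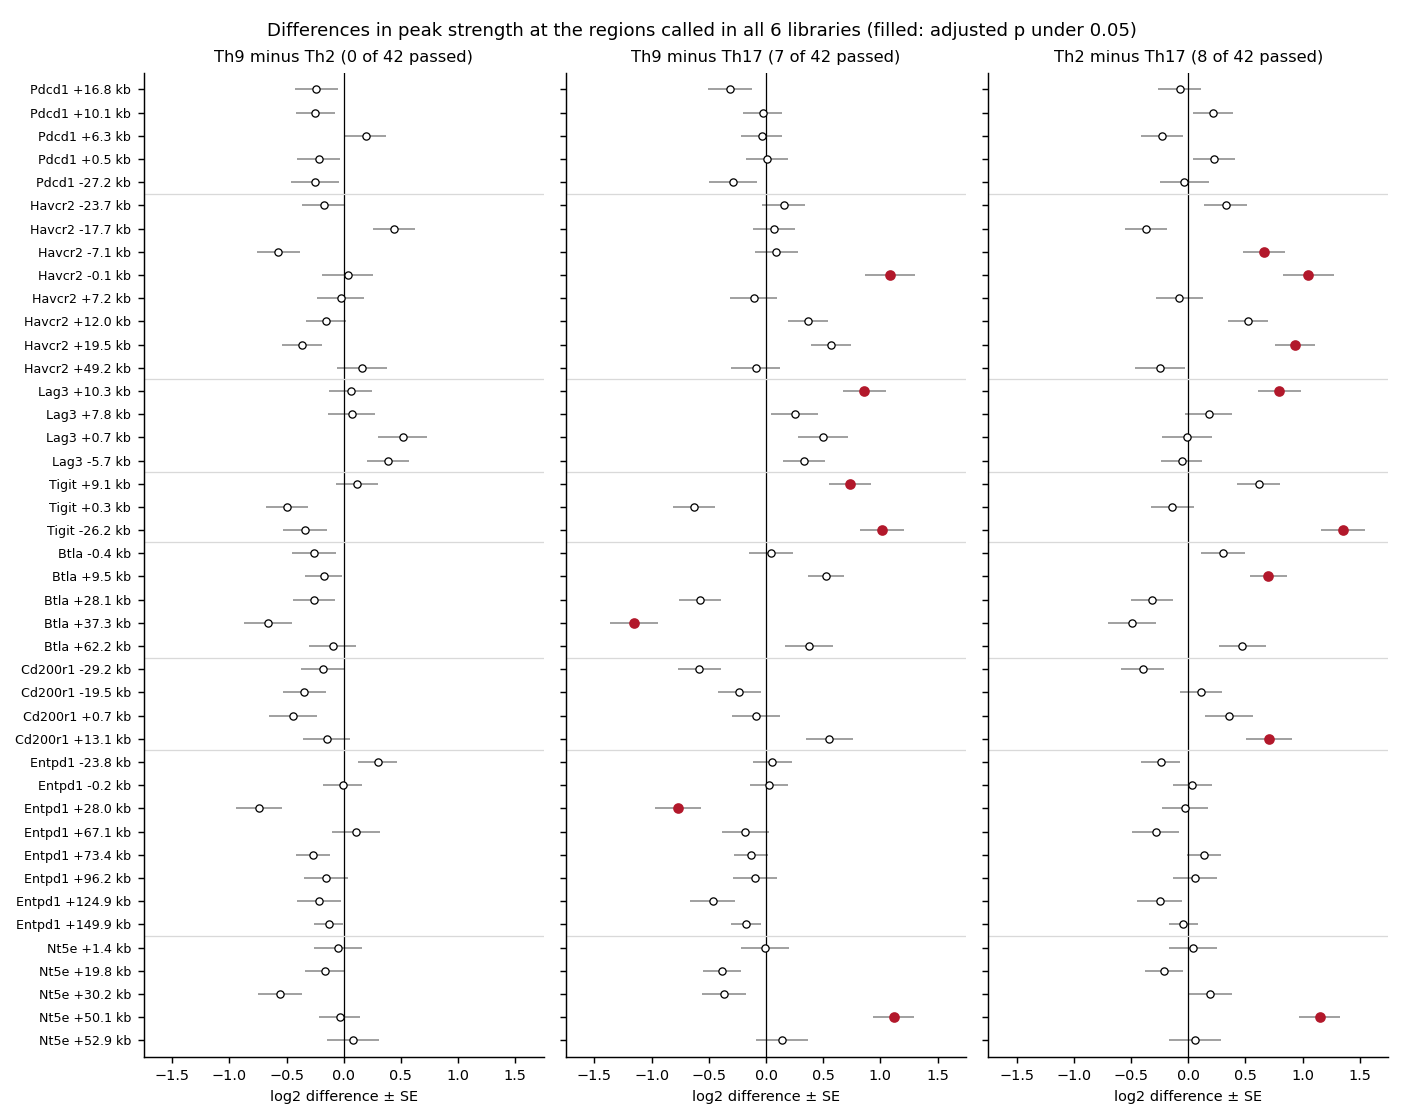
Differences in peak strength (x axis, log2, with SE bars) at the 42 regions called in all 6 libraries, by gene and distance from its start, for Th9 minus Th2, Th9 minus Th17 and Th2 minus Th17. Filled points passed an adjusted p of 0.05: 0, 7 and 8 of 42. The points that passed lie right of zero, except 2 in the middle panel.

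The median difference of the 42 regions was -0.16 between Th9 and Th2, -0.0003 between Th9 and Th17 and 0.059 between Th2 and Th17, against 0.016, -0.0012 and -0.032 over all regions. Between Th9 and Th2, 12 of the 42 (28.6%) had a higher value in Th9, against 52.6% of all regions. Both Th17 libraries were below the other 4 at 11 regions (26.2%, background 11.7%) and above them at 7 (16.7%, background 12.1%). Both Th2 libraries were above the other 4 at 10 (23.8%, background 10.9%), and both Th9 libraries were below them at 9 (21.4%, background 11.0%). The reverse orders, Th2 below or Th9 above the other 4, were each found at 3 (7.14%, background 12.3% and 11.3%).

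The largest difference was at Tigit, whose product competes with the activating receptor CD226 for CD155. A region between genes at -26.2 kb (chr16:43690036-43690709) had percentiles of only 32.6 and 34.7 in the Th17 libraries, compared with 87.8 and 79.2 for Th9 and 92.3 and 87.3 for Th2. Th9 and Th2 overlapped and both Th17 libraries were far below them. Th2 exceeded Th17 by 1.35 ± 0.19 log2 units (adjusted p = 0.000402), a call that held under all 13 alternatives that gave a fit (adjusted p from 1.05e-05 to 0.0162). A fold of at least 4 gave no fit at this region, nor at those below whose calls held under 13 alternatives. Th9 exceeded Th17 by 1.01 ± 0.19 (adjusted p = 0.00497), with an adjusted p of 0.0739 without Th17 replicate 1 and 0.0527 without Th17 replicate 3. An intronic region at +9.1 kb was also weaker in Th17, with percentiles of 79.9 and 71.6 against 90.6 and 90.0 in Th9 and 89.3 and 89.9 in Th2. Th9 exceeded Th17 there by 0.73 ± 0.19 (adjusted p = 0.0267), but Th2 against Th17 did not pass (0.61 ± 0.19, adjusted p = 0.0546). The first of these calls was lost without each of the Th9 and Th17 libraries in turn, at adjusted p of 0.0528 without Th9 replicate 1, 0.137 without Th9 replicate 3, 0.131 without Th17 replicate 1 and 0.225 without Th17 replicate 3. It was also lost with the mean fold in place of the highest (0.0616), with the lowest fold for missing values (0.064) and on the logit scale (0.161). The start of Tigit, in contrast, gave a Th9 minus Th17 difference of -0.63 ± 0.18 that did not pass (adjusted p = 0.0547).

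At Nt5e, the gene of CD73, the start did not differ, but a region at +50.1 kb did. This region (chr9:88376327-88378266) lay past the end of Nt5e, within the neighbouring gene Snx14. Th9 gave percentiles of 95.3 and 91.1 there, both Th2 libraries gave 94.3, and Th17 gave 79.1 and 67.2. Th9 exceeded Th17 by 1.12 ± 0.18 (adjusted p = 0.00181) and Th2 exceeded Th17 by 1.15 ± 0.18 (adjusted p = 0.000856). Both calls held under all 13 alternatives, with adjusted p up to 0.0498 and 0.0308. A second region in Snx14, at +52.9 kb, lay at percentiles of 89.9 to 98.5 and did not differ (adjusted p = 0.81 and 0.932). Regions were assigned to genes by position alone. Which gene these or the other regions away from the starts act on was not measured.

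Havcr2 differed at further places besides its start. An intronic region at +19.5 kb (chr11:46474086-46474743) was strongest in Th2, with percentiles of 95.8 and 96.5, followed by Th9 with 93.4 and 91.9 and Th17 with 86.3 and 83.2. The subsets did not overlap. Th2 exceeded Th17 by 0.93 ± 0.17 (adjusted p = 0.00295), which held under all 13 alternatives, and Th9 against Th17 did not pass (0.57 ± 0.17, adjusted p = 0.0644). A region at -7.1 kb, over the start of 2310031A07Rik, reached 85.9 and 73.0 in the Th2 lists, against 54.1 and 56.8 for Th9 and 33.8 and 56.6 for Th17. Th2 exceeded Th17 there by 0.66 ± 0.19 (adjusted p = 0.0392), a call lost without Th2 replicate 1 (0.208), Th17 replicate 1 (0.382) or Th17 replicate 3 (0.106), with the lowest fold for missing values (0.179), on the logit scale (0.147) and without the trend in limma (0.0598). An exonic region of the gene, at percentiles of 88.3 to 97.1, gave a Th2 minus Th17 difference of 0.52 ± 0.17 that did not pass (adjusted p = 0.088). The strong region at +49.2 kb, at percentiles of 84.2 to 94.0, consisted wholly of repeat sequence.

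Lag3 encodes a relative of CD4 that binds MHC class II. Its downstream region at +10.3 kb (chr6:124900379-124902349), between genes, was placed at percentiles of 90.2 and 85.9 by the Th9 libraries, 91.0 and 84.5 by Th2 and 68.9 and 62.2 by Th17. Both Th17 libraries were again below the other 4. The region was counted with Lag3 only because it lay within the 5 kb flank, and the gene it acts on was not measured. The Th9 minus Th17 difference was 0.86 ± 0.19 (adjusted p = 0.0125) and the Th2 minus Th17 difference 0.80 ± 0.19 (adjusted p = 0.0148). The first call was lost without Th9 replicate 1 (adjusted p = 0.0618), Th17 replicate 1 (0.106) or Th17 replicate 3 (0.111), and the second without Th2 replicate 1 (0.146), Th17 replicate 1 (0.108) or Th17 replicate 3 (0.138). On the logit scale neither passed (0.109 and 0.0821). A region within the gene at +4.2 kb was called in 5 libraries, covering 1009 and 1179 bp in Th9, 1883 and 1907 bp in Th2 and 247 bp in Th17 replicate 1. Th17 replicate 3 had no peak there. The region at -5.7 kb held the starts of Ptms and A230083G16Rik, and its Th17 peaks lay outside the 5 kb flank.

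Btla, whose product binds HVEM, had differences in both directions. An intronic region at +9.5 kb (chr16:45232837-45234817) was weak in Th17, at percentiles of 22.8 and 11.2, while Th9 had 65.2 and 68.4 and Th2 had 77.4 and 72.4. Th2 exceeded Th17 by 0.70 ± 0.16 (adjusted p = 0.0112), with an adjusted p of 0.116 without Th17 replicate 1 and 0.174 without Th17 replicate 3, and of 0.0704 with the lowest fold for missing values. Past the gene's end, a region at +37.3 kb (chr16:45261186-45262012) had the opposite order, with Th17 highest at 87.3 and 89.1, Th2 next at 77.7 and 83.8 and Th9 lowest at 62.4 and 35.4. The subsets did not overlap. The Th9 minus Th17 difference was -1.16 ± 0.21 (adjusted p = 0.00353), with an adjusted p of 0.071 without Th17 replicate 3.

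Entpd1 gave the other region that was higher in Th17 than in Th9, in an intron at +28.0 kb (chr19:40639723-40641043). Th9 had percentiles of 84.1 and 82.1 there. Th17 had 96.1 and 88.7, a range that held both Th2 values, 94.3 and 92.9. The Th9 minus Th17 difference was -0.77 ± 0.20 (adjusted p = 0.0325), and the Th9 minus Th2 difference of -0.74 ± 0.20 did not pass (adjusted p = 0.0565). The call was lost without Th9 replicate 1 (adjusted p = 0.156), Th9 replicate 3 (0.07) or Th17 replicate 1 (0.378), and also with median centring (0.0512), the lowest fold for missing values (0.107), the logit scale (0.263) or a fold of at least 4 (0.177). The other 7 regions of Entpd1 called in all 6 libraries passed in no comparison.

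Cd200r1 encodes the receptor for CD200. Its intronic region at +13.1 kb (chr16:44778562-44779193) lay at percentiles of 74.7 and 68.5 in Th17, below the 91.2 and 77.4 of Th9 and the 90.6 and 87.1 of Th2. Th2 exceeded Th17 by 0.70 ± 0.20 (adjusted p = 0.043). This was the highest adjusted p of the 15 calls over the 11 regions, and the call was lost without Th2 replicate 1 (adjusted p = 0.17), Th2 replicate 3 (0.0898), Th17 replicate 1 (0.203) or Th17 replicate 3 (0.256), with the lowest fold for missing values (0.117) and on the logit scale (0.204). In all, 8 of the 15 calls were lost on the logit scale and 7 with the lowest fold for missing values.

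**Figure D4:**
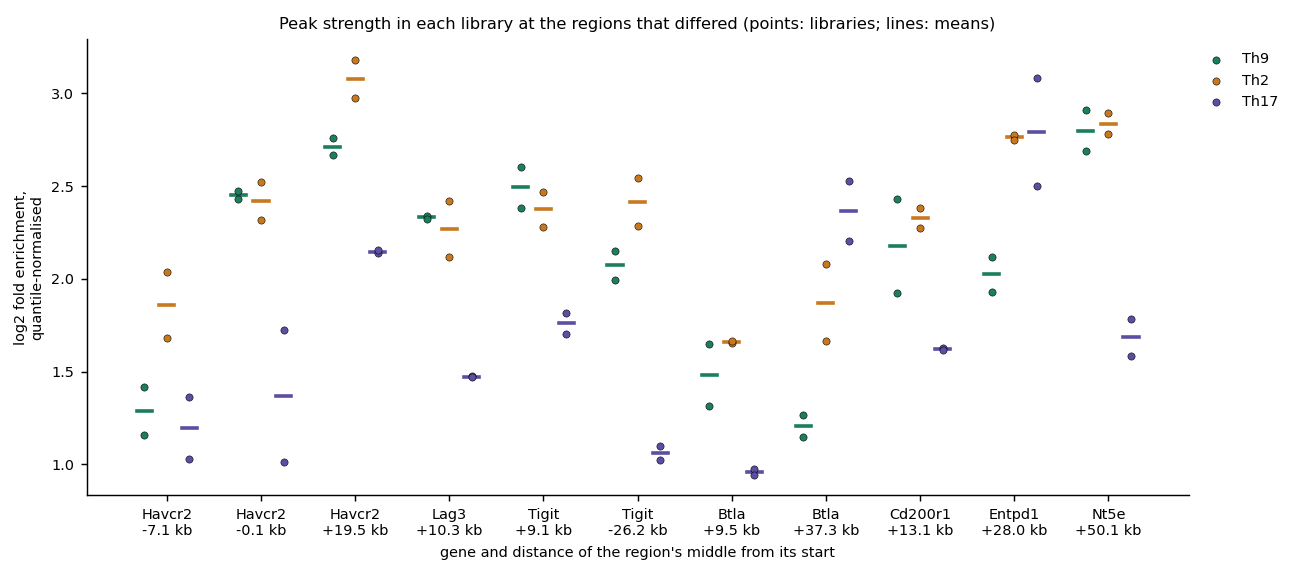
Peak strength (y axis, quantile-normalised log2 fold enrichment) in each library at the 11 regions that differed between subsets, by gene and distance from its start. Points are libraries and lines the means of 2. The Th17 points are lowest at 9 of the regions by their mean, and highest at Btla +37.3 kb and Entpd1 +28.0 kb.

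Pdcd1, the gene of PD-1, gave 0 regions that differed. Its 5 regions called in all 6 libraries had adjusted p of at least 0.404 in all 3 comparisons. The strongest of them, at +16.8 kb (chr1:94032985-94038513), began within the last exon and lay mostly past the gene's end. Its percentiles were 99.4 and 97.4 for Th9, 99.7 and 99.0 for Th2 and 99.6 and 99.4 for Th17, the highest of the 42 regions in every library but Th9 replicate 3, where the start of Entpd1 was higher. The peaks there covered 1906 and 2014 bp in Th9, 3846 and 4978 bp in Th2 and 2765 and 2790 bp in Th17. A region between genes at -27.2 kb was also shared, at percentiles of 70.3 to 90.5.

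Presence of a peak, rather than its strength, was then compared. Of the 89 regions, 16 were called in both libraries of at least 1 subset and in neither library of at least 1 other, or 18.0%, near the background of 17.0%. Neither Th17 library called 11 regions that both libraries of another subset called (12.4%, background 9.12%). For Th9 the number was 8 (8.99%, background 9.11%) and for Th2 it was 1 (1.12%, background 4.64%). The 1 region missing from both Th2 libraries lay in an intron of Nt5e at +5.4 kb, called at percentiles of 18.1 and 53.5 in Th9 and 36.9 in Th17 replicate 3.

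The regions called in both Th2 libraries and no other were 4 (4.49%, background 2.87%). They lay at Btla -25.6 kb with percentiles of 78.6 and 79.5, Btla +5.2 kb with 31.3 and 56.8, Cd200r1 +7.0 kb with 66.4 and 72.9, and at +29.8 kb from Pdcd1, inside Neu4, with 20.0 and 0.8. There were 0 regions called in both libraries of Th9 alone (background 1.31%) or of Th17 alone (background 1.7%). The region at Nt5e -29.6 kb was called in both Th9 libraries, at 80.8 and 78.2, and both Th2 libraries, at 28.8 and 69.6, and in neither Th17 library (background 2.0%). The intronic region at Entpd1 +109.5 kb was called in both Th2 libraries, at 63.0 and 47.7, and both Th17 libraries, at 39.3 and 43.1, and in neither Th9 library (background 1.55%). The pattern of both Th9 and both Th17 libraries without Th2 was found at 0 of the 89 (background 0.296%).

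The remaining 10 split the subsets less cleanly, because the third subset had a peak in 1 of its 2 libraries. Tigit +15.0 kb, over an exon, was called at 84.0 and 80.1 in Th2 and 58.2 in Th9 replicate 1, and in neither Th17 library. Tigit -29.9 kb was called at 89.8 and 80.1 in Th2 and 68.0 in Th17 replicate 1, whose peak lay just outside the 30 kb flank, and in neither Th9 library. Nt5e +10.5 kb was called at 75.0 and 78.7 in Th9 and 53.7 in Th2 replicate 3, and in neither Th17 library. The others were Pdcd1 +42.9 kb, Havcr2 +33.4 kb, Btla -3.3 kb, Entpd1 +59.1 kb, Nt5e -5.0 kb, Nt5e +46.2 kb and the region missing from Th2 named above. Regions at the 8 genes called in 1 to 5 libraries had a median percentile of 47.4, against 82.7 for those called in all 6. Genome-wide, the medians of these classes were 27.5 and 74.3.

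The libraries differed in how many of the 89 regions they called, the Th2 libraries calling 71 and 74, the Th9 libraries 65 and 57 and the Th17 libraries 56 and 52. The 15 regions called in a single library (16.9%, background 37.2%) numbered 4 in Th9 replicate 1, 5 and 6 in the Th2 libraries, and 0 in the other 3. Peaks in the 89 regions summed to 64611 and 61043 bp for Th9, 85446 and 91092 bp for Th2 and 48335 and 59549 bp for Th17. The Th2 lists covered more of the genome as well, with 108 to 118 Mb against 80.7 to 102 Mb in the other subsets.

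Covered length was therefore compared gene by gene after bringing the libraries to a common distribution. Lag3 and Pdcd1 stood out among genes in all 6 libraries. The Th2 peaks covered 38.6% and 40.7% of the Lag3 window, those of Th9 25.9% and 31.6% and those of Th17 14.4% and 20.1%, which placed it above 96.0% to 99.6% of protein-coding genes. For Pdcd1 the shares were 24.7% and 27.6% for Th2, 23.2% and 16.1% for Th9 and 11.6% and 14.2% for Th17, at ranks of 92.6 to 98.8. The Lag3 window has shorter flanks than those of other genes, so its share counts the gene body more and its rank compares unlike windows. The other 6 genes ranged from 2.96% for Cd200r1 in Th17 replicate 1 to 14.5% for Tigit in Th2 replicate 3, and the median over all genes lay between 4.14% and 5.56%.

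Tigit was covered over 6.09% ± 0.0404 of its window in Th9, 13.35% ± 1.60 in Th2 and 6.79% ± 0.144 in Th17 (SD, n = 2 each), so that both Th2 libraries were above all others. Th2 was also highest at Btla, where Th9, Th2 and Th17 had 6.41% ± 0.0621, 10.2% ± 0.217 and 6.04% ± 0.311. After normalisation, 0 of the 8 genes and 0.0% of 20758 genes tested passed in limma in any of the 3 comparisons. At an unadjusted p under 0.05 there were 2 of the 8 genes for Th9 against Th2 (background 15.9%), 3 for Th9 against Th17 (19.5%) and 4 for Th2 against Th17 (14.1%). The lowest was Tigit, with a Th9 minus Th2 difference of -0.81 ± 0.14 in log2 covered length (unadjusted p = 0.00109, adjusted p = 0.131). When only peaks with a fold enrichment of at least 4 were counted, Lag3 passed for Th9 against Th17 (2.41, adjusted p = 0.0184) and for Th2 against Th17 (1.91, adjusted p = 0.0327), and Tigit for Th2 against Th17 (1.63, adjusted p = 0.0311). At that fold the Th17 libraries had no peak left in the Lag3 window, where their highest folds were 3.44 and 3.51. The size of the Lag3 differences therefore depends on the 500 bp added to each length. The median fold also differed between lists, at 2.19 and 2.18 for Th17, 2.23 and 2.38 for Th2 and 2.51 and 2.39 for Th9. Under that setting 200 genes (1.23%) passed genome-wide for Th9 against Th17 and 140 (0.86%) for Th2 against Th17. The peaks at the myeloid genes Cd14 and Itgax were also present in both Th2 libraries, at percentiles of 55.1 to 71.4. Cd14 was marked in Th17 replicate 3 too, at 54.5. Csf1r and Lyz2 had 0 peaks at their starts in all 6 libraries. The part of the Cd14 and Itgax peaks in the Th2 values was not tested.

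**Figure D5:**
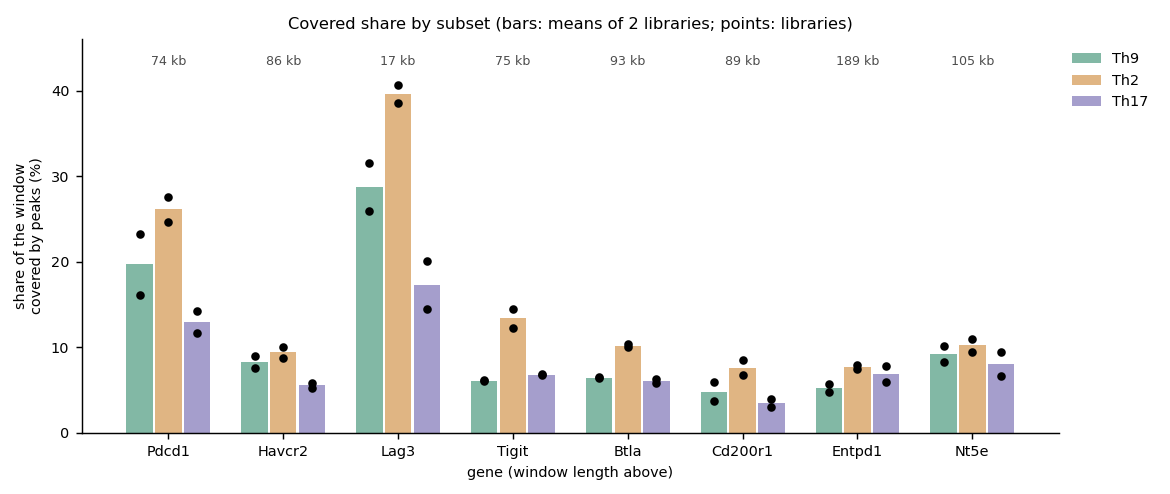
Share of each gene's window covered by peaks (y axis, percent), with bars for the means of 2 libraries and points for the libraries, and the window length above. Before normalisation, Th2 has the highest mean at all 8 genes and Lag3 the highest shares, from 14.4% to 40.7%. The median share over all genes was also highest in the Th2 libraries, at 5.12% and 5.56% against 4.14% to 4.57% in the others. None of the 8 genes passed the normalised comparison.

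Genes of the same pathways were examined by the peaks at their starts. Over all protein-coding genes, 58.7% had a start peak in all 6 libraries and 28.0% in 0 libraries. Of 10 genes for ligands and partners of the receptors, 8 had a start peak in all 6 libraries, among them Cd274, the gene of the PD-1 ligand PD-L1, at percentiles of 86.7 to 93.6. Pdcd1lg2, which encodes the other PD-1 ligand PD-L2, had a start peak at 91.3 and 88.1 in Th9 and 92.6 and 91.2 in Th2, and none in Th17. The wider region there was called in all 6 libraries, and its strength gave a Th9 minus Th17 difference of 1.35 ± 0.19 (adjusted p = 0.000764) and a Th2 minus Th17 difference of 1.47 ± 0.19 (adjusted p = 0.00019), where 1.14% and 1.01% of start regions genome-wide were higher in Th9 or Th2. Fgl1, for a ligand of LAG-3, had a start peak in 0 libraries.

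Of 11 other inhibitory or related receptors, 6 had a start peak in all 6 libraries and 3 in 0 libraries, near the shares over all genes (58.7% and 28.0%). Cd226, the activating counterpart of TIGIT, was stronger in Th2 than in Th17 by 0.87 ± 0.17 (adjusted p = 0.00489). It was the only one of the 7 fitted that passed, where 1.01% of start regions genome-wide were higher in Th2. Ctla4 lay at percentiles of 88.9 to 93.9 in all libraries. Of 11 genes for adenosine and extracellular nucleotides, 8 had a start peak in all 6 libraries, including the adenosine receptor genes Adora2a and Adora2b, and 0 of 10 fitted passed in any comparison. All 8 genes of signalling partners, such as Ptpn6 and Ptpn11 for SHP-1 and SHP-2, were marked in all 6 libraries with 0 passing. All 9 regulators linked to sustained stimulation were marked too, among them Tox at 69.6 to 85.4 and Nr4a3 at 96.1 to 98.2. Batf was the 1 of these 9 that passed, with a Th2 minus Th17 difference of -0.67 ± 0.18 (adjusted p = 0.0305), where 1.45% of start regions genome-wide were higher in Th17.

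Ranked by covered share over the 6 libraries, the gene closest to Lag3 outside its own window was Tnfrsf4, which encodes OX40, at a distance of 4.97 percentage points, followed by Hemk1 and Cd82. The 3 closest to Tigit were Spata9, Uqcrb and Riok3, at 1.84 to 2.21 points. The Lag3 window had 5 kb flanks and those of the other genes 30 kb, so its distances compare unlike windows. With 6 values per gene and 21951 genes compared, such neighbours are a description of levels.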

How the data were processed

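ATAC-seq peak lists of 6 libraries were analysed. According to the methods and the submitters' processing notes, the authors trimmed reads (Trim Galore 0.4.3), aligned them to mm10 (Bowtie2), removed duplicates (Picard), low-quality and mitochondrial reads, and called broad peaks per library with MACS2 2.1.0 in paired-fragment mode, with no control and no local background. The cutoff and a Tn5 shift were not given in the sources used here. Without local background, multi-copy sequence can be called.

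The deposited lists gave, as the authors' peak caller wrote them, a display score (not used), fold enrichment (a linear ratio), and −log10 p and q-values. Nothing in them counts reads, so depth is unknown.

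Peaks overlapping or touching were joined (Python 3.11.15, pandas 2.3.3, numpy 2.4.6; checked against bedtools 2.31.1) and annotated with GENCODE M21 basic on GRCm38. Peak strength was the highest fold per region and library, as log2, quantile-normalised, and tested in limma 3.58.1 (R 4.3.3, empirical Bayes with trend, Benjamini-Hochberg) over 50493 regions called in all 6 libraries. Covered length, log2(bp + 500), was tested likewise over 20758 protein-coding genes with at least 500 bp covered in 2 libraries. For a single region, a permutation test of 2 libraries against 4 cannot go below p = 0.0667 (one-sided), so none was run. On simulated data for Th2 against Th17 over 50493 regions, limma recovered 29 of 100 planted differences of 1 log2 unit and 99 of 100 of 2 units. It called 6 of 50293 unchanged regions. The simulation changed far fewer regions than the 3756 that passed in the data, so it does not give the recovery of the real fit.

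Regions named were those over starts, those past the threshold and those split between subsets by calls, with the 12 of widest range of subset means in full. Members and lists were chosen with earlier results of these data known. Alternatives were −log10 q of at least 5, fold of at least 4, equal list lengths, the top 20000 peaks, 200 bp joining, 50% of a region covered, 5 kb flanks, other scalings, pseudocounts and filters, a replicate block and each library left out.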

Additional observations from a re-analysis of the deposited data

How the results depend on the processing

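The number of regions at the 8 genes fell from 89 to 39 with a fold of at least 4, 34 among the top 20000 peaks and 51 with 5 kb flanks. Those called in every library fell from 42 to 12, 13 and, with 50% of a region covered, 16. Those in a single library fell from 15 to 9 with a −log10 q of at least 5, 5 with a fold of at least 4, 4 among the top 20000 and 2 with 5 kb flanks. Those split between subsets were 32 with 50% covered and 10 with 5 kb flanks, against 16. Leaving out each library gave 85 to 89 regions, 42 to 44 in every library, 15 to 17 in a single library and 17 to 28 split.

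For Th9 against Th17, 4 regions passed with missing values at the lowest fold, 3 on the logit scale and 0 of 12 fitted with a fold of at least 4, against 7. Genome-wide, 1572 were higher in Th9 and 1462 in Th17 in the main fit. The same 3 settings gave 2215 and 1789 (with more regions fitted), 429 and 155, and 29 and 5. For Th2 against Th17, 4 passed on the logit scale and 0 of 12 with a fold of at least 4, against 8. Genome-wide, 2546 were higher in Th2 and 1210 in Th17 in the main fit. The numbers were 1263 and 141 on the logit scale and 222 and 34 with a fold of at least 4. With a fold of at least 4, only 1 of the 15 calls could be refitted. Leaving out each library gave 0, 2 to 9 and 3 to 9 for the 3 comparisons. Without a Th17 library that subset rests on 1 library, assumed to vary like the others. Median centring turned the genome-wide split for Th9 against Th2 from 511 higher in Th9 and 1100 in Th2 to 1054 and 969. In covered length, 1 and 2 genes (of 200 and 140 genome-wide) passed against Th17 with a fold of at least 4, and 0 without each library. Of 196 refits of the 15 calls, 149 stayed past the threshold, 47 did not and 0 changed direction.

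The labels do not say whether libraries of equal replicate number belong together, and the main fits did not pair them. Deviations of equal numbers correlated at 0.207 between Th9 and Th2, 0.0098 between Th9 and Th17 and 0.001 between Th2 and Th17. With the replicate block, 1, 10 and 9 regions passed against 0, 7 and 8, and 0 genes in covered length. Genome-wide numbers rose too. For Th9 against Th2 they went from 511 higher in Th9 and 1100 in Th2 to 751 and 1454. Those for Th9 against Th17 went from 1572 and 1462 to 1806 and 1700, and those for Th2 against Th17 from 2546 and 1210 to 2845 and 1455.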
